A study of Pelodiscus sinensis with 18 samples.

Results

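The 9 gut libraries of soft-shelled turtles exposed to niclosamide were split into sides chosen by the measured FPKM of 1 gene, LOC102459158, and the sides were compared across all genes. FPKM counts sequenced fragments relative to transcript length and to the mapped total of a library. Guts with at least 20 FPKM of LOC102459158 are called marker-present, and guts under 20 FPKM are called marker-absent. The marker-present side held 3 guts, which were control 1, control 2 and nic50 3. The marker-absent side held the other 6 guts, which were control 3, all of nic10, nic50 1 and nic50 2. The split uses a measured level, so it is a description of these libraries and not a treatment. Dose was uneven between the sides, since no nic10 gut was marker-present.

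The series holds 18 libraries of total RNA from Pelodiscus sinensis, the Chinese soft-shelled turtle, with 9 from gut and 9 from liver. All libraries carry the genotype label WT, and each tissue has 3 libraries without niclosamide (control), 3 at 10 µg per L (nic10) and 3 at 50 µg per L (nic50). Niclosamide is an anthelmintic and molluscicide. The labels give neither sex nor age. They do not state that replicate libraries are different turtles, or which gut and liver share a turtle, so the spread behind each p-value may be technical.

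The soft-shelled turtle has female heterogamety, with ZW females and ZZ males, and its Z and W are small chromosomes that share genes with chicken chromosome 15. In many animals with ZW chromosomes, Z-linked genes are not fully balanced between the sexes, and their RNA is lower in females. A gene found only on W is transcribed in females alone. This is background: the reference annotation used here does not mark which turtle chromosome is Z or W, and no sex was assigned to any library.

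The gut libraries had FPKM sums of 677583 to 753840 and 11534 to 12340 features at 1 FPKM or more, and sequencing depth is unknown for such values. The tissue labels were checked with CDX2, an intestinal transcription factor, at 39.8 to 57.2 FPKM in gut and at most 0.0483 in liver, and with FGB, a fibrinogen chain of hepatocytes, at 4.74 FPKM or less in gut and at 17476 or more in liver. Transcripts of the mitochondrial genome accounted for 11.5% to 21.1% of summed FPKM in marker-present guts and for 9.25% to 19.0% in marker-absent guts, so the sides overlapped.

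LOC102459158 was measured at 77.9 FPKM in control 1, 70.6 in control 2 and 59.2 in nic50 3. It stood at 1.45 FPKM in control 3 and was listed at 0 in the other 5 guts. The lowest gut inside the threshold and the highest gut outside it were therefore 59.2 and 1.45 FPKM, and a threshold of 5 FPKM gives the same sides. LOC102448023 had 12.3, 11.2 and 14.0 FPKM in the 3 marker-present guts and at most 0.10 in the others. LOC102447871 ranged from 12.2 to 19.2 FPKM in the marker-present guts and reached 0.0929 at most in the others. Neither the table nor the reference gives these genes a name, and no function is assigned to them here.

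Genes that behaved like the marker were collected by a rule on the same values. The lowest marker-present gut had to have at least 1 FPKM and at least 10 times the highest marker-absent gut. The rule found 24 genes, called the set below, and the reverse rule found 0. The choice fixes their direction in gut, so they are described with no test. After LOC102459158 the highest was LOC102446816, with 67.0, 53.2 and 54.9 FPKM in control 1, control 2 and nic50 3, and 1.60 at most elsewhere in gut. LOC112545294 varied most among the leading genes, with 25.7, 20.8 and 9.15 FPKM in the same order. LOC102444602 ran the other way, with 6.53, 8.51 and 14.9 FPKM. The lowest of the set, LOC102451607, had 1.21 to 1.78 FPKM in the marker-present guts and was listed at 0 in the others.

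Summed over the set, the marker-present guts had 276, 260 and 272 FPKM. The marker-absent guts had 0.561 to 4.81 FPKM. The sides were far apart on this sum, as the rule for the set requires, and 10 of the 24 genes were listed at 0 in every marker-absent gut. The highest marker-absent gut was control 3 with 4.81 FPKM, which is 1.79% of the marker-present mean, and 8 set genes reached 0.1 FPKM there.

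**Figure D1:**
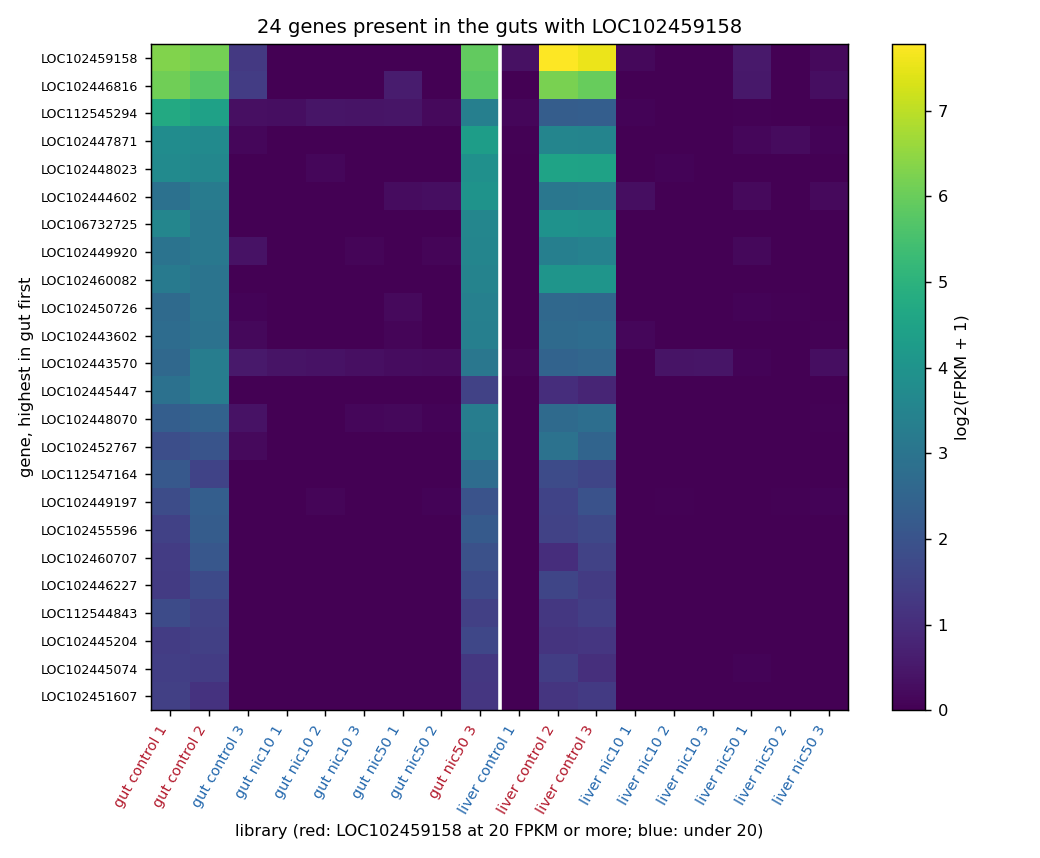
Level of each of the 24 set genes (rows, highest in gut first) in each of the 18 libraries (columns), as log2(FPKM + 1) in colour, with marker-present libraries named in red and marker-absent libraries in blue. Guts control 1, control 2 and nic50 3 and livers control 2 and control 3 are bright in nearly every row, and gut control 3 shows a faint trace in its leading rows.

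The livers played no part in the split of the guts or in the choice of the set. LOC102459158 reached 219 and 187 FPKM in liver controls 2 and 3 and 0.448 FPKM at most in the other 7 livers, so the 20 FPKM threshold separated 2 livers from 7. LOC102459158 itself chose these liver sides, so its own separation in liver was fixed in advance. All 24 set genes had both of these livers above all 7 others, and 23 met the full rule in liver. Over all 24880 features 28 met that rule in liver, so some genes outside the set did too. The share of all features with both livers above the 7 others is not given here. The exception within the set was LOC102445447, with 1.04 and 0.765 FPKM in the marker-present livers. The set summed to 418 and 375 FPKM in the marker-present livers and to 0.235 to 1.42 FPKM in the others. Of the sums of 418 and 375 FPKM, LOC102459158 gave 219 and 187. Levels differed between the tissues within the set: LOC102459158 was higher in the marker-present livers than in any gut, while LOC112545294 had 3.89 to 4.06 FPKM in those livers.

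The genes whose log2 level followed LOC102459158 most closely over all 18 libraries were LOC102448023, LOC102460082, LOC106732725, LOC102446816 and LOC102449920, with Pearson correlations of 0.993, 0.992, 0.991, 0.991 and 0.989. All 5 belong to the set, and the correlation describes libraries that fall into separate clusters. Of the 24 genes, 4 are on chromosome 15 of the RefSeq reference assembly, 8 are on sequence with no assigned chromosome and 12 were not matched to the reference. The 4 on chromosome 15 are LOC102450726, LOC102444602, LOC102459158 and LOC102448023, and they lie together at one end.

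Outside the set, most genes of chromosome 15 were lower in the marker-present guts, while genes elsewhere were centred near no difference. Differences are given as marker-present minus marker-absent on the log2(FPKM + 1) scale, and genes with at least 1 FPKM in at least 3 guts were tested. With dose as a term, the nic10 guts, all marker-absent, add to the estimate of the spread but not to the side difference. That difference compares the marker-present guts with control 3, nic50 1 and nic50 2 at the same dose. In this fit the median of the 238 tested genes of chromosome 15 was -0.84, with an interquartile range of -1.0 to -0.52. The 12355 tested genes elsewhere had a median of -0.03. They include 2073 genes with no chromosome in the reference, some of which could lie on chromosome 15, and the 10269 genes of the other numbered chromosomes also had a median of -0.03. A lower value on the marker-present side was found for 218 of the 238 genes (91.6%) and for 54.2% of genes elsewhere. Without the dose term the medians were -0.91 on chromosome 15 and -0.07 elsewhere, and the other numbered chromosomes lay between -0.11 and 0.02.

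**Figure D2:**
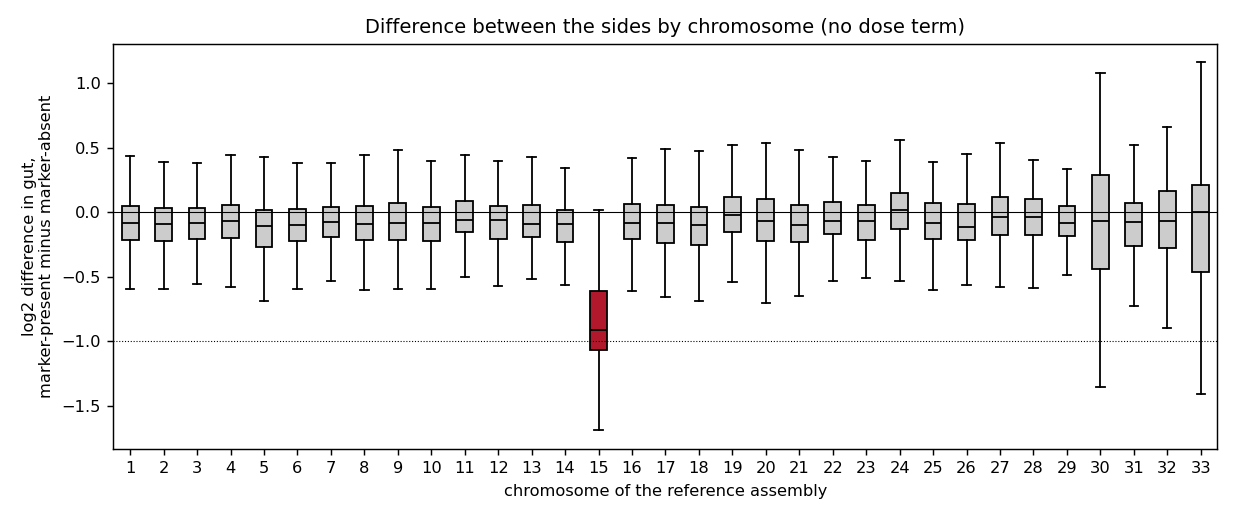
Log2 difference in gut (vertical axis, marker-present minus marker-absent, without a dose term and without the set) for the tested genes of each numbered chromosome of the reference assembly (horizontal axis), with boxes for the quartiles, a line for the median, and whiskers to the last gene within 1.5 interquartile ranges. Chromosome 15, in red, has a median of -0.91, and the medians of the others lie between -0.11 and 0.02.

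The 3 marker-present guts shared this pattern library by library. Each gene's log2 level was first centred on its median over the 9 libraries of its tissue, which draws the larger, marker-absent side towards no difference. The median was then taken over 112 genes of chromosome 15 with a mean of at least 10 FPKM in gut. Relative to the median of genes outside the chromosome, it was -0.76 in control 1, -0.84 in control 2 and -0.80 in nic50 3. The 6 marker-absent guts lay between 0.03 and 0.19, with control 3 at 0.08. The sides did not overlap, and the gap between them exceeded the spread of guts within a side, whose SD was 0.0572. Among the 9 livers, controls 2 and 3 were at -0.67 and -0.71 over 88 genes, and the other 7 lay between 0.05 and 0.15. Chromosome 15 supplied 1.07% to 1.31% of the FPKM sum in marker-present guts and 1.89% to 2.39% in marker-absent guts.

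**Figure D3:**
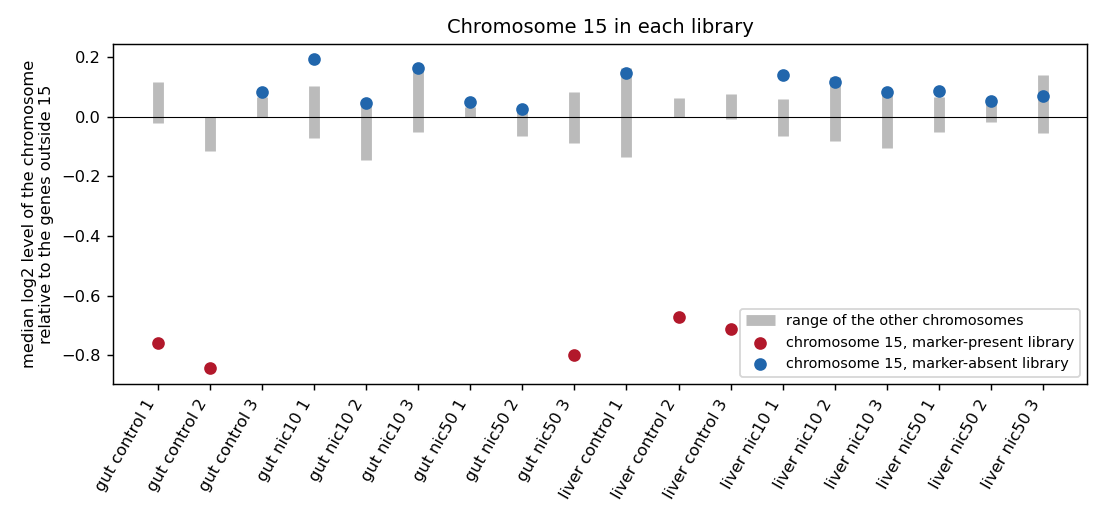
Median log2 level of chromosome 15 relative to the genes outside it (vertical axis) in each of the 18 libraries (horizontal axis), with marker-present libraries in red, marker-absent libraries in blue and a grey bar for the range of the other chromosomes with at least 20 such genes. Each gene was first centred on its median over the libraries of its tissue. The 3 marker-present guts lie between -0.84 and -0.76 and the 2 marker-present livers at -0.67 and -0.71, while the other 13 libraries are at 0.03 or above.

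On the FPKM scale, without a logarithm, the ratio of the marker-absent mean to the marker-present mean had a median of 2.10 over the 112 genes of chromosome 15, with quartiles of 1.84 and 2.29. It was 1.04 over 5285 genes elsewhere. A ratio between 1.5 and 2.5 was found for 69.6% of the genes on chromosome 15 and for 3.18% elsewhere. For 168 of the 238 genes (70.6%) all 3 marker-present guts were below all 6 marker-absent guts, against 3.55% of all genes tested. For 0 genes of chromosome 15 outside the set were they all above.

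Single genes were called when limma's Benjamini-Hochberg adjusted p over all 12617 genes was below 0.05. With the dose term 47 genes (0.373%) were called: the 24 set genes, whose calls are not read as a result, 19 lower genes of chromosome 15, and 1 higher and 3 lower genes elsewhere. Lower calls made up 0.174% of all genes tested. These calls rest on the set: without its 24 genes in the fit and in the adjustment, limma called 0 genes and the smallest adjusted p was 0.0683. Before adjustment 170 of the 238 genes of chromosome 15 had a p under 0.05, among 844 of the 12593 genes outside the set. Without the dose term 142 genes (1.13%) were called, of which 102 were lower genes of chromosome 15, and 99 of these 102 were still called with the set left out. Lower calls made up 0.904% there. Unless stated otherwise, each adjusted p given below for a gut gene has the set in its adjustment. Whether a single value near 0.05 would stay under it without the set is not given. The count was lower without a marker-present gut. Of lower genes of chromosome 15, 14 were called without control 1, 19 without control 2 and 50 without nic50 3. Between 69 and 93 were called without any of the marker-absent guts. Leaving out a marker-present gut also takes most set genes below the filter and so out of the adjustment. How much of the drop comes from that was not tested.

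CRKL, an adaptor protein of growth factor signalling, had the smallest p of the 19. It was at 13.8, 13.6 and 11.7 FPKM in control 1, control 2 and nic50 3, and at 27.6 to 33.3 FPKM (median 28.3) in the 6 others. The difference with the dose term, to which the nic10 guts do not contribute, was -1.22 (SE 0.13). The sides did not overlap. The limma adjusted p of CRKL was 0.00874, but only with the set in the adjustment. With the set left out, the smallest limma adjusted p of any gene was 0.0683 with the dose term. TMED2, a cargo receptor of vesicles between the endoplasmic reticulum and the Golgi, had 45.6, 39.0 and 37.9 FPKM against 79.2 to 107 (median 87.8). Its difference was -1.21 (SE 0.15, limma adjusted p = 0.0197 with the set in the adjustment). TAOK3, a protein kinase, had 11.6, 12.2 and 7.46 FPKM against 24.7 to 34.1 (median 28.5), a difference of -1.42 (SE 0.17).

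Several of the others act in dividing cells or in nucleic acid metabolism. RFC5, a subunit of the clamp loader of DNA replication, had 43.1, 35.1 and 44.1 FPKM against 70.4 to 112 (median 87.6), a difference of -1.28. ANAPC7, a subunit of the anaphase-promoting complex, had 12.3, 12.7 and 14.8 FPKM against 28.2 to 36.3 (median 31.8), a difference of -1.17. SUDS3, a subunit of a histone deacetylase complex, fell by 1.15 and SNRNP35, a protein of the minor spliceosome, fell by 1.07, both on the log2 scale. These genes were brought together by their known roles after their values were seen, and no theme was tested.

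Genes of the secretory pathway and of signalling were also among them. SNAP29, which takes part in membrane fusion, had 19.9, 20.5 and 22.4 FPKM against 42.4 to 90.3 (median 59.8), a difference of -1.22. MLEC, a lectin of the endoplasmic reticulum, had 6.33, 7.11 and 6.45 FPKM against 12.4 to 18 (median 15.2), a difference of -1.19. PPP1CC, a catalytic subunit of protein phosphatase 1, had a difference of -1.03, and YWHAH, a 14-3-3 adaptor, one of -0.98. PGAM5, a mitochondrial phosphatase, had a difference of -1.28, and HSCB, a co-chaperone of iron-sulfur cluster assembly, one of -1.43. The remaining genes were DGCR6 (LOC102454292), VSIG10, FBXW8, RNF10, ANKRD13A and CCDC117, with differences of -1.35 to -1.05. In all 19 genes the 3 marker-present guts lay below the 6 others.

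**Figure D4:**
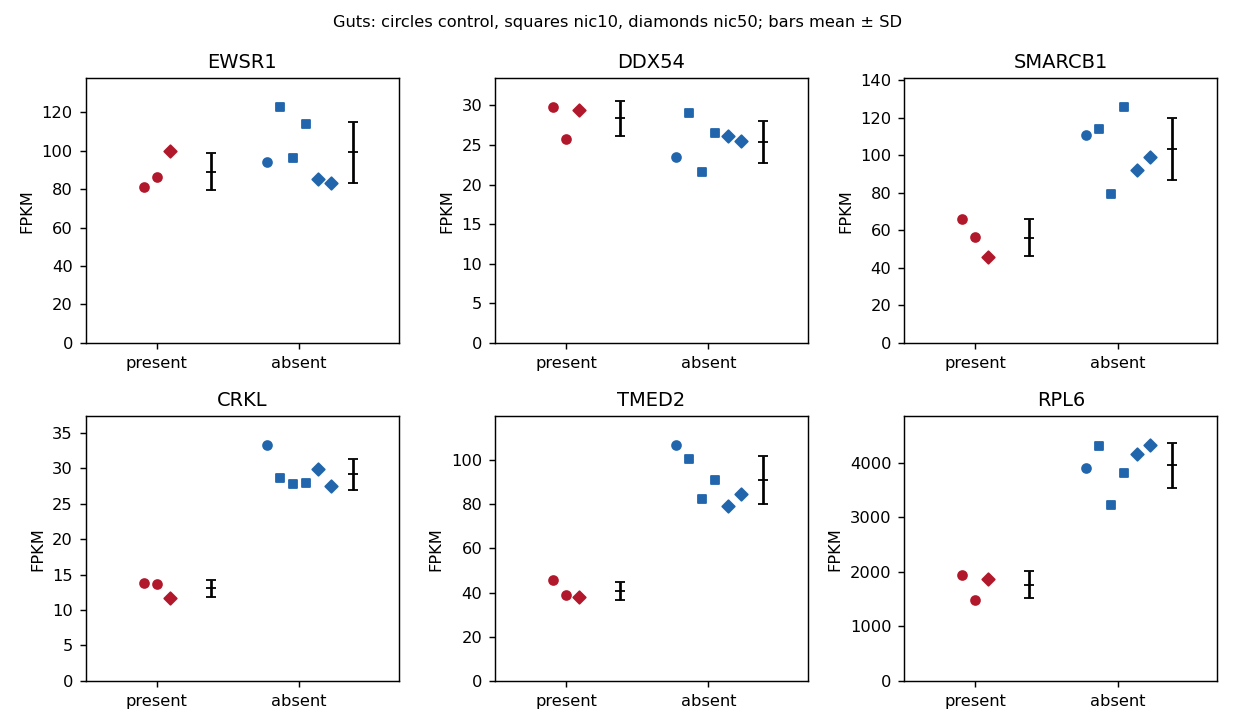
FPKM (vertical axis, from 0) of 6 genes of chromosome 15 in the 3 marker-present guts (red) and the 6 marker-absent guts (blue), with circles for control, squares for nic10, diamonds for nic50, and bars for the mean ± SD of each side. SMARCB1, CRKL, TMED2 and RPL6 separate without overlap, while EWSR1 and DDX54, which lie nearer to the set genes on the chromosome, overlap between the sides.

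The order of genes along chromosome 15 of the reference divided it into stretches with different behaviour. The 4 set genes lay in an end stretch of 12 table features. Of the other 8 features there, LOC102463148 was 0.963 FPKM or more in marker-present guts and 0.151 or less in the others, and met neither the minimum of 1 FPKM nor the ratio of 10. Next came a first block of 31 table features, ending with DDX54, and then a second block of 337 features from SMARCB1 to the far end. The border between the blocks was placed after the values were seen, and the reference may differ in order from the genome behind the table.

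In the first block, 21 genes were tested and had a median difference of 0.05 with the dose term. None of them was called with either fit. With the dose term in limma 1 had an unadjusted p under 0.05 (4.76%), against 6.70% of all genes outside the set. In 0 of them were all marker-present guts below all others, against 2.27% of genes elsewhere. These counts are near the shares of other genes. EWSR1, an RNA-binding protein, had 81.3, 86.3 and 99.9 FPKM in the marker-present guts and 83.1 to 123 (median 95.4) in the others. DDX54, an RNA helicase, had 29.8, 25.8 and 29.4 FPKM against 21.5 to 29.1 (median 25.8). Both genes overlapped between the sides.

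In the second block, 217 genes were tested, 212 were lower on the marker-present side and the median was -0.86. All 19 calls on the chromosome lay here, as did all 102 calls made without the dose term. The sides did not overlap for 168 genes (77.4%). The ratio of marker-absent to marker-present means was 2.14 at the median over 101 genes with a mean of at least 10 FPKM (quartiles 1.95 and 2.30), against 0.940 over 11 such genes of the first block. SMARCB1, a subunit of SWI/SNF chromatin remodelling complexes, is the first gene of the block. It had 65.7, 56.3 and 46.0 FPKM against 79.2 to 126 (median 105), a difference of -0.94 (SE 0.20, limma adjusted p = 0.151 with dose and 0.0409 without).

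**Figure D5:**
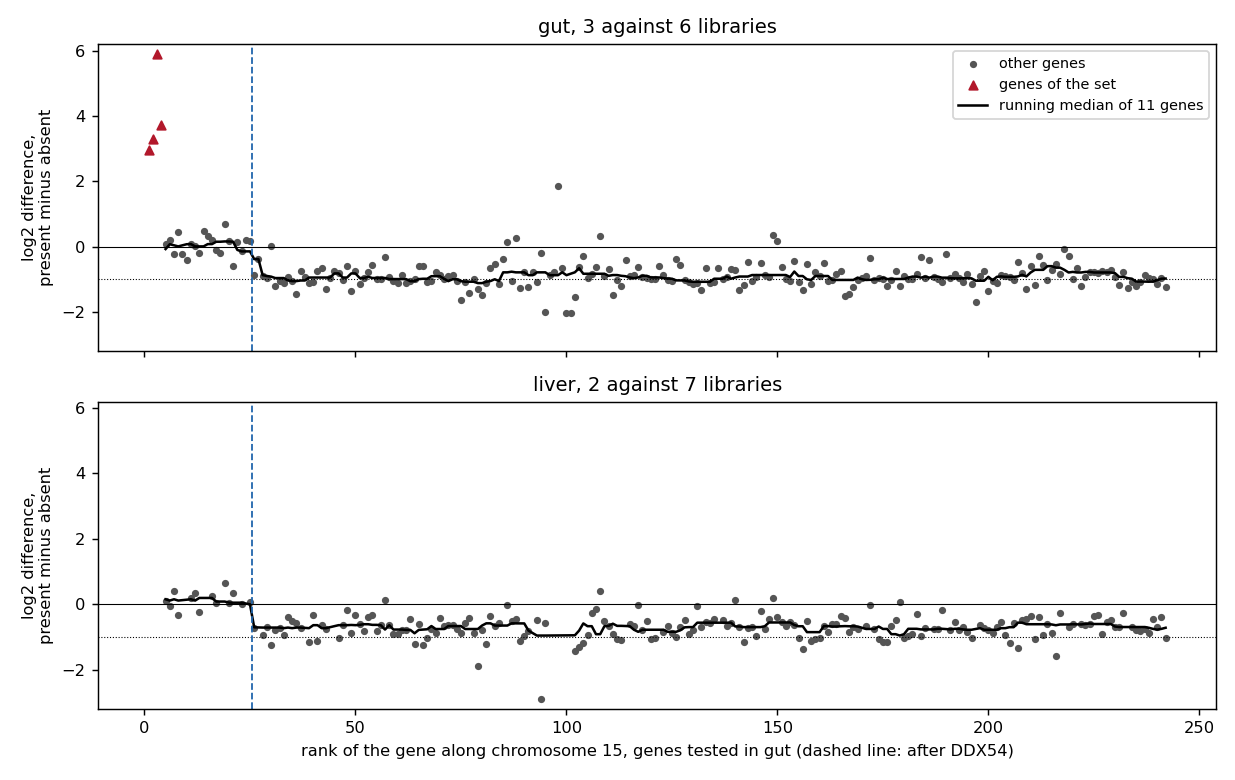
Log2 difference between marker-present and marker-absent libraries without a dose term (vertical axis) against the rank of each gene along chromosome 15, for genes tested in gut (top, 3 against 6) and those of them also tested in liver (bottom, 2 against 7), with the set genes as red triangles, a running median of 11 genes as a black line and a dashed line after DDX54. The set genes were not tested in liver because 2 libraries cannot pass the filter; the running median lies near 0 left of the dashed line and below 0 along the whole chromosome to its right in both tissues.

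Lower levels were spread over the whole second block and did not collect in a few genes. Split by mean level, the 73 genes with the lowest levels had a median of -0.66, the next 72 one of -0.89 and the 72 with the highest levels one of -1.0. The log2(FPKM + 1) scale understates differences of low genes. RPL6 and RPLP0, proteins of the cytosolic ribosome, were among the most abundant. RPL6 had 1945, 1480 and 1875 FPKM against 3234 to 4332 (median 4034), and its difference of -1.19 (SE 0.19) had a limma adjusted p of 0.0599 with the dose term. RPLP0 had 2257 ± 250 FPKM (SD, n = 3) against 4481 ± 625 (SD, n = 6).

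Without the dose term 13 of the 217 genes of the second block had a difference above -0.3, and with it 5 of the 13 were below -0.3. UBB, a polyubiquitin gene, was the most abundant of them, with 1348, 1242 and 1007 FPKM in the marker-present guts and 758 to 1244 (median 891) in the others. Polyubiquitin genes have close copies, and whether reads of UBB were shared among copies was not tested. SCARB1, a lipoprotein receptor, had 25.5 to 45.9 FPKM against 2.91 to 84.9, a difference of 0.18 without the dose term and -0.54 with it. DAO, an amino acid oxidase, had 19.5 to 41.6 against 7.68 to 69.5, with -0.28 and -1.18. TBX3 (LOC102456286), PRODH (LOC102443690), LRRC43, SDSL, CORO1C and PTPN11 were also among the 13. LRRC43 and SDSL had -0.76 and -0.75 with the dose term. PRODH, a proline-degrading enzyme, was called lower in liver, by -2.89 without the dose term (limma adjusted p = 0.0102). In that liver fit side and exposure cannot be told apart, since no exposed liver was marker-present. All 13 overlapped between the sides in gut.

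Unexposed and exposed guts gave similar sizes. Within controls, where libraries 1 and 2 were set against library 3, the median of chromosome 15 was -0.81. Within nic50, where library 3 was set against libraries 1 and 2, it was -0.85. Most genes called within controls and within nic50 were set genes, whose direction in gut was fixed by their choice. Calls of set genes are not read as a result here either. Each of these contrasts leaves 1 library alone on a side, which the model assumes to vary like the others. They called 20 genes (0.159%) and 19 genes (0.151%), with 0 outside the set on chromosome 15, where 139 and 134 of the 238 genes had an unadjusted p under 0.05 in limma. The difference between the contrasts had a median of -0.02 on chromosome 15 and of 0.02 over genes elsewhere. CRKL had -1.22 within both, and the difference between them was 0.00 (SE 0.27).

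The difference between the contrasts called 1 gene (0.00793%), LOC102449646 on chromosome 32, which has no name in the table. It had 1.13 and 0.874 FPKM in control guts 1 and 2 against 22.8 in control 3, and 50.9 FPKM in nic50 3 against 2.29 and 4.44 in the other nic50 guts. The side difference was -3.57 in controls and 3.62 in nic50 (SE 0.40 each), and their difference was 7.19 (SE 0.57, limma adjusted p = 0.0430).

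The livers, which the split of the guts did not use, showed the same chromosome. No exposed liver was marker-present, so every liver comparison without a dose term, here and below, mixes side with exposure. Without a dose term the 221 tested genes of chromosome 15 had a median of -0.68 in liver, against 0.07 for genes elsewhere. Of the 221, 92.3% were lower in the marker-present livers. With a dose term, which compares controls 2 and 3 with control 1 alone, the medians were -0.30 and 0.35. The whole liver distribution was shifted upward by 0.34 in that fit, so chromosome 15 lay 0.65 below the genes elsewhere. Of 209 genes of chromosome 15 tested in both tissues, 188 were lower in both without the dose term.

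The blocks of chromosome 15 were also apart in liver. The first block had a median of 0.11 over 15 genes and the second -0.71 over 206 genes without the dose term, and 200 of the 206 were lower. The ratio of marker-absent to marker-present means was 0.970 over 8 genes of the first block and 1.89 over 80 genes of the second, against 0.986 elsewhere. In liver 68 genes (0.624%) were called without the dose term, of which 15 were lower genes of chromosome 15, and lower calls made up 0.303% of the genes tested. The liver fit with the dose term compares the marker-present controls with the only marker-absent control. That library, liver control 1, had the fewest features at 1 FPKM or more of all livers, 9440. It also had the highest share of FPKM from the mitochondrial genome among livers, 20.4%. The part of this library in the calls was not tested. Most calls of that fit were higher genes outside chromosome 15. With the dose term 258 genes (2.37%) were called, and 10 were lower genes of chromosome 15.

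All 19 genes called lower on chromosome 15 in gut were lower in liver without the dose term, and 4 of them were called there. With the dose term 15 of the 19 (78.9%) were lower in liver and 0 were called. The shares of lower genes are near those of all 209 genes of chromosome 15 tested in both tissues. Of these, 95.7% had the same sign in liver without the dose term and 77.0% with it. Without the dose term 12 of the 209 were called in liver with the same sign, and 28 of 9919 genes elsewhere. The 4 of the 19 called in liver were TMED2, VSIG10, RFC5 and RNF10. TMED2 had 73.8 and 67.8 FPKM in liver controls 2 and 3 and 120 to 197 (median 163) in the other 7 livers. RNF10, a ubiquitin ligase, had 59.2 and 56.0 FPKM against 95.4 to 108 (median 98.3). VSIG10, an immunoglobulin-domain membrane protein, had 1.55 and 1.78 FPKM against 3.77 to 12.8 (median 10.8). RFC5 had 10.1 and 9.41 FPKM against 18.1 to 34.3 (median 22.3). The sides did not overlap for these 4 genes in either tissue, but the genes were picked by their calls in both. The share of all genes without overlap in liver is not given here.

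Few genes elsewhere were called, although the sides did not overlap for 381 of the 12355 (3.08%), 280 lower and 101 higher. With the dose term LOC102457841 on chromosome 16 was higher by 1.52, with 3.71, 3.27 and 2.78 FPKM against 0.306 to 1.57. LOC102455822 on chromosome 32 had 0.154, 0.546 and 1.4 FPKM against 1.94 to 28.4, and LOC102462956 was at 0.0846 FPKM or less against 0.770 to 6.52. LOC106732819 on chromosome 33 was called lower by -1.30 with the dose term, but its sides overlapped. None of the last 3 was called without the dose term. Of the 9 fits without 1 library, 1 called LOC102457841, and 2 or 3 called each of the others.

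Without the dose term 16 genes elsewhere were called, 4 higher and 12 lower, of which 8 of the lower ones were not matched to the reference. PARP3, an enzyme of DNA repair, had 34.5, 29.1 and 32.5 FPKM against 11.5 to 18.4 (median 16.0), a difference of 1.0 (limma adjusted p = 0.0117). ITGA2, an integrin chain that binds collagen, had 2.0, 1.89 and 2.63 FPKM against 3.49 to 7.21 (median 5.51), a difference of -1.01 (limma adjusted p = 0.0394). MRPS34, a protein of the mitochondrial ribosome, and CENPU (LOC102463409), a kinetochore protein, were also lower, by -0.89 and -0.76. LOC102459036 had 0, 0 and 8.24 FPKM against 23.2 to 53.4. With the dose term PARP3 had an adjusted p of 0.144 and ITGA2 one of 0.144.

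Known genes of sex determination gave little signal in gut. DMRT1, a testis factor, was listed at 0 in every gut, and FOXL2, an ovary factor, reached 0.0513 FPKM at most. AMH, ESR1, RSPO1 and CYP19A1 (LOC102459111), the aromatase gene, stayed at or under 0.635 FPKM and were not tested. SOX9, which also acts in the intestinal epithelium, had 14.0 to 23.5 FPKM in marker-present guts and 13.1 to 22.8 in the others, a difference of -0.41 (SE 0.25, limma adjusted p = 0.863). These levels do not give the sex of a gut, and the name putative female for the marker-present side was not tested beyond the genes described here.

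Gene lists for gut cell types and for pathways showed no call with the dose term in limma, where 24 members had an unadjusted p under 0.05. There were 29 lists, 28 with a tested member, and 397 distinct members were tested. Without the dose term 4 members were called, RPL6, RPLP0, XBP1 and TXNRD2, and all 4 were lower and lie on chromosome 15. That is 1.01% of the members, near the 0.937% called among all genes outside the set, and the 24 members are 6.05% against 6.70%. XBP1, a transcription factor of the unfolded protein response, had 62.1 ± 5.46 FPKM (SD, n = 3) against 153 ± 47.1 (SD, n = 6). TXNRD2, the mitochondrial thioredoxin reductase, had 3.27 ± 0.62 against 7.91 ± 0.91. The median over the 58 cytosolic ribosomal protein genes was -0.06 with the dose term, and the same over all genes tested was -0.03.

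The makeup of the gut pieces varied within each side. Enterocyte markers summed to 11012 to 19998 FPKM in marker-present guts and to 1692 to 30611 in the others. Smooth muscle markers summed to 1061 to 3699 against 909 to 2382 FPKM, and their median difference was 0.51 with the dose term and -0.03 without it. Pancreas markers summed to 71.1 to 122 against 24.1 to 81.9 FPKM. DNA replication and mitosis genes had a median of -0.67 with the dose term and -0.35 without, with no member called. The ranges of the sums overlapped between the sides for each of these lists. In bulk tissue, fewer cells of a type and less RNA per cell cannot be told apart, and the part of these differences in the calls was not tested.

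The doses in gut were compared with and without a term for the uneven sides. In nic10 against control, 22 genes (0.174%) were called without a term for the sides and 5 (0.0396%) with it, and all 5 were among the 22. All 22 kept their direction with the term, and their median size was 2.09 without it and 2.08 with it on the log2 scale. The median of chromosome 15 was 0.66 in that comparison without the term and 0.12 with it, while over all genes it was 0.11 and 0.08. In nic50 against control, 3 genes (0.0238%) were called without the term and 4 (0.0317%) with it, and the chromosome 15 median was 0.24 and -0.02. The 3 were FGA, FGG and LOC102450868. FGA and FGG, chains of fibrinogen, lie on chromosome 5, and both kept their direction with the term. No gene of chromosome 15 was called by dose with either fit. Both dose comparisons share the 3 control guts, of which 2 are marker-present.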

How the data were processed

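Per the labels' protocols, TRIzol was used for RNA extraction and a VAHTS Universal kit for the libraries. CASAVA is named in the submitters' processing notes. The genome build, read aligner and counting program are not given in the sources consulted. The table that the authors deposited holds FPKM values for 24880 features in 18 libraries. No counts were used, so no interval for counting error is given.

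The transformation was log2(FPKM + 1), and linear models with a trended variance were fitted by limma 3.58.1 (R 4.3.3), two-sided, with Benjamini-Hochberg adjustment over all genes tested (threshold 0.05). The main model had side and dose as terms, so its side difference comes from control and nic50 guts. Within-dose contrasts came from a model of group means. Chromosomes and gene order came from RefSeq assembly ASM4963464v1, to which 19758 features were matched. Its start coordinates were used only to order the genes and to place the stretches along chromosome 15. A symbol found there is printed with the feature's identifier. Near-identical copies may share reads.

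The members, lists and rules were chosen with earlier results of these data known. Genes were named by rule: the set, the 15 lowest and 15 highest called genes with a symbol whose sides do not overlap (none was higher), the 10 smallest p on chromosome 15, interaction calls, up to 4 members per list (printed where they bear on a result), genes of sex determination and the 5 genes most like the marker; others were chosen after their values were seen. Some genes these rules cover are not reported here. The fit was tested on simulated data. Alternatives are in the closing section.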

Additional observations from a re-analysis of the deposited data

Results flagged for a closer look

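Among 28 groups of 6 or 7 libraries checked for a library far from the others, 3 stood out, and chance gives about 1 in 20. Gut control 3 had a summed set level of 4.81 FPKM, with the nearest marker-absent gut at 1.61 FPKM. SUDS3 was 29.5 FPKM in gut nic10 2, with the nearest at 34.8 FPKM. PPP1CC was 30.5 FPKM in gut nic10 1, with the nearest at 26.4 FPKM. The side difference of LOC102449646 differed between controls and nic50 by 7.19 on the log2 scale in limma's interaction test, with values from single libraries on 1 side of each contrast.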

How the results depend on the processing

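The lower median of chromosome 15 kept its direction in every alternative run, while the counts of called genes did not keep their size. Relative to genes elsewhere the median was -0.81 in gut. It was -0.96 with a pseudocount of 0.1, -0.66 without a filter and -0.87 for genes with a mean of at least 5 FPKM. When each gut was left out it was -0.82 to -0.76. Leaving out a nic10 gut cannot change the difference of a gene, so those fits do not test it. Of the 24 single genes followed over these settings (those called outside the set, and SOX9) none reversed, but many lost their call. It was lost by 23 with only control and nic50 guts, by 22 with a replicate block and by 5 to 23 when a gut was left out. A fit without a marker-present gut also loses most set genes from its adjustment, and these effects were not told apart. CRKL was called in 5 of the 9 fits without 1 gut, the most among the 24. MLEC, HSCB, ANKRD13A, CCDC117 and SNRNP35 were called in 0 of them. Among other genes of chromosome 15 in the report, SCARB1, SDSL, EWSR1, CORO1C and TBX3 (LOC102456286) changed sign between the fits with and without dose; none was called in either.

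The dose-term fit called 47 genes, of which, outside the set, 19 lay on chromosome 15 and 4 elsewhere. Counts on chromosome 15 and elsewhere leave out the set in the alternatives below too, while totals include it. Side alone gave 142, 102 and 16. Only control and nic50 guts gave 12, 0 and 0. A filter of at least 1 FPKM in 6 guts gave 0, 0 and 0, as did leaving out the set, and both remove set genes from the adjustment. No filter gave 12 elsewhere, a mean of at least 5 FPKM gave 29 on chromosome 15, and the contrast within controls, from the model of group means, gave 20 in all. Leaving out each gut gave 2 to 45 in all, 0 to 18 on chromosome 15 and 0 to 5 elsewhere, lowest without control 1. Side alone, leaving out each gut, gave 17 to 129, 14 to 93 and 0 to 28; with the set left out it gave 113, 99 on chromosome 15. Most genes called by the contrast within controls were set genes. Leaving out the set, and leaving out each gut from side alone, were chosen after seeing the data.

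In liver 258 genes were called with the dose term, 68 with side alone, and 6 to 2284 when each liver was left out; the fit without liver control 1 was not estimable. The liver median of chromosome 15 relative to genes elsewhere was -0.65, -0.76 with side alone and -0.66 to -0.63 with each liver left out. Dose calls for nic10 were 5 with the side term and 22 without.

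Replicate numbers did not pair the samples throughout: correlations of same-numbered libraries ran from -0.288 to 0.254 in gut, with 2 of 9 over 0.1, and from -0.189 to 0.247 in liver, with 5 of 9 over 0.1, among them all pairs of number 3. A replicate block gave 19 calls in gut, 0 of them genes of chromosome 15 outside the set, and 9 in liver. Sequencing depth is unknown, so low values carry an unknown counting error.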
